A study of Mus musculus with 10 samples.

Results

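A set of 10 genes of the TNF superfamily was followed in splenic CD11c+ dendritic cells (DCs): the ligands Tnf, Tnfsf4, Tnfsf8, Tnfsf9, Tnfsf10, Tnfsf13b and Tnfsf15 and the receptors Tnfrsf1b, Tnfrsf4 and Tnfrsf9. They were chosen by name with earlier results of these data known, so their counts beside all tested genes are descriptive. The choice was made from the 22180 genes on the array with a probe set of 1 gene symbol. Each of the 10 was read from its only such probe set. The 10 arrays of the study fell into 4 groups. DCs lacking both complement anaphylatoxin receptors (C3ar1-/-C5ar1-/-, here DKO) were measured after CpG (n = 3) and without stimulation (n = 2), and wild-type (WT) DCs were measured after CpG (n = 3) and without stimulation (n = 2). CpG (100 µg), unmethylated DNA sensed by Toll-like receptor 9, or vehicle was injected into the mice, and the DCs were taken with magnetic beads 4 h later, so that they were stimulated inside the animal and among the other cells of the spleen. The labels give neither age, sex nor strain, nor the number of mice behind an array, and p-values therefore measure the spread between these samples only.

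TNF superfamily ligands are mostly trimeric membrane proteins that are displayed on, or shed from, one cell and bind receptors on another. The receptors recruit TRAF adaptors that switch on NF-kB, and some of them carry a death domain that can trigger apoptosis. In the spleen, activated DCs use such ligands to prolong T cell responses through OX40 (Tnfrsf4) and 4-1BB (Tnfrsf9), to sustain B cells through BAFF (Tnfsf13b) and to drive inflammation through TNF.

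Values are log2 intensities per probe set, so a step of 1 is a doubling of signal, and array medians over all probe sets lay between 5.5002 and 5.5619. Changes were fitted with limma across 13371 genes and given as log2 change ± standard error. A gene is said to have risen or fallen where the Benjamini-Hochberg adjusted p over these genes was under 0.05. All 10 superfamily genes passed the filter on low values. Tnfsf8 exceeded the array median on 5 arrays, namely the unstimulated ones and, narrowly, DKO CpG 3. It thus passed the filter through the unstimulated groups, where it was higher. Tnfsf4 exceeded it on 8 arrays, all but WT unstimulated 1 and DKO unstimulated 2. Tnfsf10 did so on 9 (not DKO unstimulated 2), Tnfsf13b on 9 (not WT CpG 3) and the other 6 genes on all 10.

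All 7 measured markers of conventional DCs exceeded the array median on every array. The isolates also carried RNA of other cells. The mean level of 12 neutrophil markers was 5.43 to 7.06 in DKO CpG arrays and 5.54 to 5.99 in DKO unstimulated arrays, against 7.02 to 8.84 in WT CpG arrays and 7.03 to 7.62 in WT unstimulated arrays. The mean of 12 splenic macrophage markers was 8.51 to 10.43 and 8.81 to 10.33 in the same DKO groups, against 10.06 to 10.25 and 10.44 to 10.56 in the WT groups, with the low values in DKO CpG 3 and DKO unstimulated 2. T cell markers, whose cells also carry Tnfrsf4 and Tnfrsf9, averaged 6.23 to 6.30 and 6.24 to 6.68 in the DKO groups, against 6.08 to 6.25 and 6.32 to 6.39 in the WT groups. Y-linked genes averaged 7.33 to 7.93 in DKO unstimulated 1, DKO CpG 1 and DKO CpG 2 and 3.21 to 3.68 in the other 7 arrays. Xist, which is expressed in females, was 4.32 to 4.91 in the former 3 and 10.41 to 10.85 in the other 7. Those 3 DKO arrays thus had a male pattern and all WT arrays a female one, so genotype and sex partly coincide. The labels speak of a first batch of samples for 1 labelling kit without saying which samples it held, and title numbers under 20 or from 20 (the title series) were used as a stand-in. These 3 arrays are also the DKO arrays with title numbers under 20, so Y-linked signal and title series cannot be told apart within DKO. The targeted C3ar1 and C5ar1 differed between DKO and WT after CpG by -0.85 ± 0.15 (adjusted p = 0.0611) and -1.67 ± 0.35 (adjusted p = 0.0732), and the place of their probes relative to the deletions is not given in the sources used here.

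CpG raised 5 of the 10 genes in both genotypes. In DKO DCs Tnf, Tnfsf4, Tnfsf9, Tnfsf15 and Tnfrsf9 rose and Tnfsf8 fell, while 10.3% of all tested genes passed, 4.54% upwards and 5.76% downwards. In WT DCs 7 rose, namely the same 5 with Tnfsf10 and Tnfrsf1b, and none fell, while 21.6% of all tested genes passed, 8.24% upwards and 13.3% downwards. The median change of the 10 genes was 0.91 in DKO and 1.34 in WT, and that of all tested genes was -0.04 in each genotype. In DKO, all CpG arrays lay above all unstimulated arrays for 6 of the 10 genes (15.2% of all tested genes) and below them for 1 (22.5%). In WT they lay above for 7 (21.2% of all tested genes) and below for 2 (31.2%). Tnf, Tnfsf9 and Tnfrsf9 rose in both genotypes under each of 24 alternative settings. Some DC markers moved with CpG too. Of 7 conventional DC markers 3 fell in DKO, while 5 fell and 1 rose in WT (medians -0.44 and -0.48), and of 7 markers of the cDC1 subset 4 fell in DKO and 5 in WT (medians -0.91 and -1.32). Of 8 markers of the cDC2 subset 2 fell in DKO and 1 in WT (medians -0.36 and -0.17). Of 7 plasmacytoid DC markers none passed in DKO, while 1 rose and 1 fell in WT (medians 0.07 and 0.17). Their part in the changes of the 10 genes was not tested. The 7 rises in WT became 4 without WT unstimulated 1, and the 6 calls in DKO became 3 without DKO unstimulated 2 and on the arrays without Y-linked signal.

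**Figure D1:**
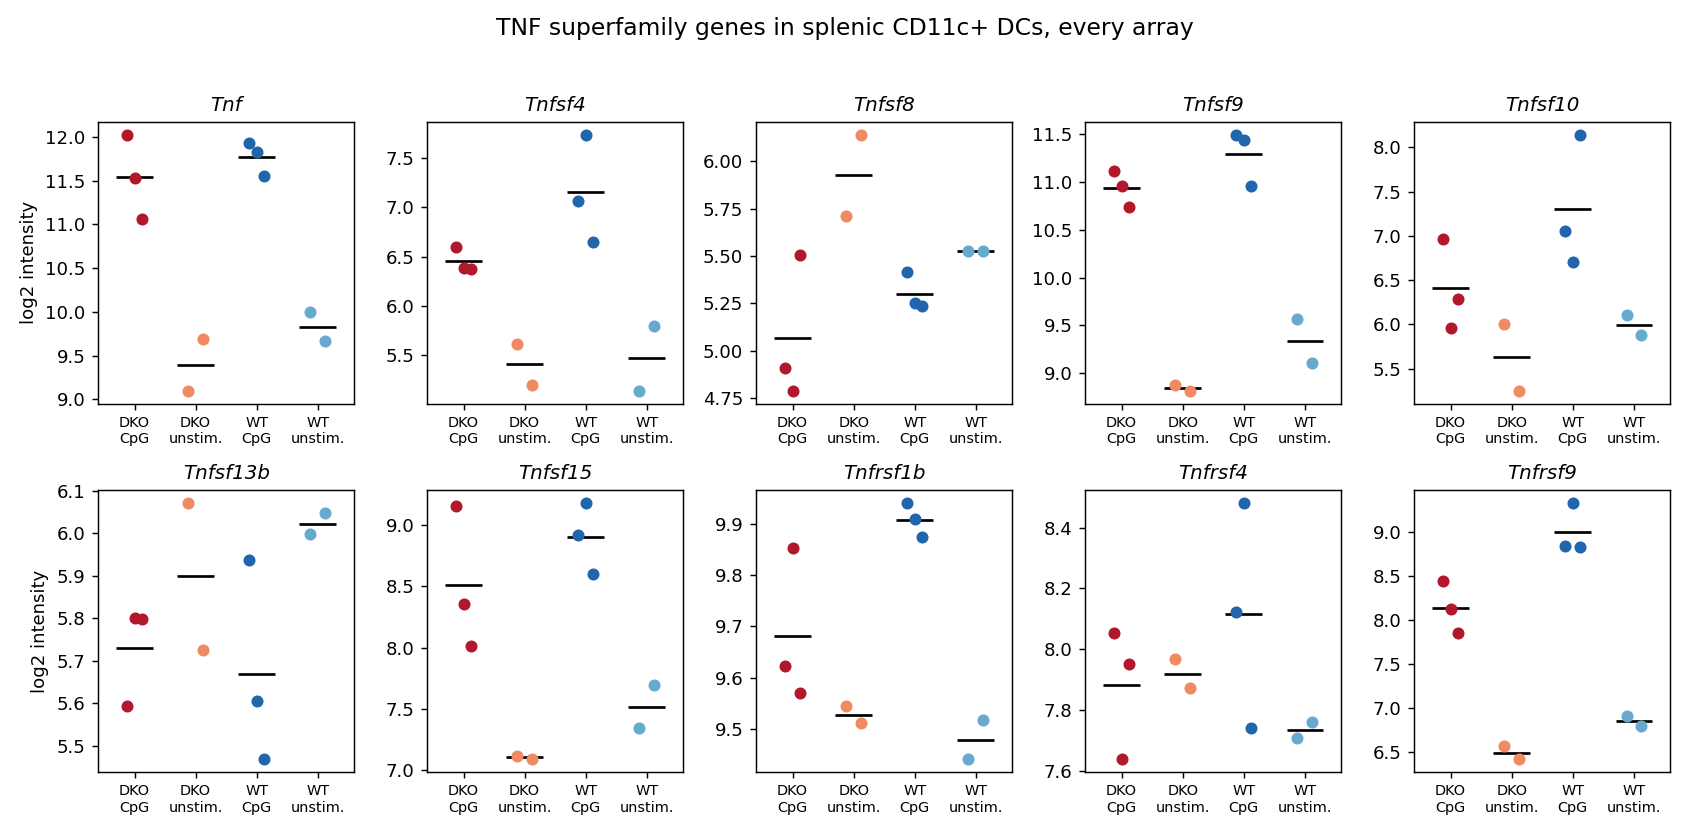
Log2 intensity (vertical axis, its own range in each panel) of the 10 genes on every array. Points are arrays, black bars are group means, and groups run from DKO CpG (n = 3) and DKO unstimulated (n = 2) to WT CpG (n = 3) and WT unstimulated (n = 2). In DKO all CpG arrays lie above all unstimulated arrays for Tnf, Tnfsf4, Tnfsf9, Tnfsf15, Tnfrsf1b and Tnfrsf9 (15.2% of all tested genes). In WT they do so for the same genes and Tnfsf10 (21.2%). The change of Tnfrsf1b did not pass in DKO.

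Tnf encodes the secreted and membrane-bound cytokine TNF. It measured 12.02, 11.52 and 11.06 in DKO DCs after CpG, against 9.10 and 9.69 in DKO DCs without stimulation. WT DCs had 11.93, 11.82 and 11.55 after CpG, against 9.9998 and 9.66 without stimulation. The CpG and unstimulated arrays were fully apart in both genotypes, while DKO and WT overlapped in each condition. The rise was 2.14 ± 0.27 in DKO (adjusted p = 0.00137) and 1.94 ± 0.27 in WT (adjusted p = 0.00072).

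A further 3 ligands engage T cells through receptors of their own. Tnfsf9 (4-1BB ligand) measured 11.12, 10.96 and 10.73 in DKO DCs after CpG, against 8.88 and 8.82 without stimulation. WT DCs gave 11.49, 11.43 and 10.95 after CpG, against 9.57 and 9.10 without stimulation. Its rise of 2.09 ± 0.20 in DKO (adjusted p = 0.000347) and 1.96 ± 0.20 in WT (adjusted p = 0.00016) amounted to 4.25-fold and 3.89-fold. Both unstimulated DKO arrays stood below both unstimulated WT arrays.

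Tnfsf4 (OX40 ligand) measured 6.60, 6.38 and 6.38 in DKO DCs after CpG, against 5.62 and 5.20 without stimulation. The level in WT DCs was 7.07, 7.73 and 6.65 after CpG, against 5.14 and 5.80 without stimulation. Every CpG array was above every unstimulated one, and the 3 WT CpG arrays were the highest of all 10. The rise was 1.04 ± 0.29 in DKO (adjusted p = 0.0458) and 1.68 ± 0.29 in WT (adjusted p = 0.00261). The DKO call ended without DKO unstimulated 1 (adjusted p = 0.0814), DKO unstimulated 2 (0.252), DKO CpG 1 (0.123), DKO CpG 2 (0.0844) or WT CpG 1 (0.0705), and under 12 of the 24 alternatives in all.

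Tnfsf15 (TL1A) binds death receptor 3 on T cells. It measured 9.15, 8.36 and 8.01 in DKO DCs after CpG, against 7.12 and 7.09 without stimulation. WT DCs had 8.92, 9.18 and 8.60 after CpG, against 7.35 and 7.69 without stimulation. The CpG arrays were spread more widely in DKO (SD 0.59) than in WT (SD 0.29), and DKO CpG 1 lay among the WT CpG arrays. The rise was 1.401 ± 0.29 in DKO (adjusted p = 0.0135) and 1.38 ± 0.29 in WT (adjusted p = 0.00667). It did not pass in DKO without DKO unstimulated 1 (adjusted p = 0.0632) or DKO unstimulated 2 (0.0859), nor in WT without WT unstimulated 1 (0.0735). The DKO change also missed when the DKO arrays were fitted alone (adjusted p = 0.0672) and was 0.92 on the arrays without Y-linked signal (adjusted p = 0.129).

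Tnfrsf9 (4-1BB), the receptor of Tnfsf9, is known from activated T cells and is also made by DCs. It measured 8.45, 8.13 and 7.85 in DKO DCs after CpG, against 6.57 and 6.42 without stimulation. The level in WT DCs was 8.85, 9.33 and 8.84 after CpG, against 6.91 and 6.80 without stimulation. The 4 groups did not overlap anywhere, with WT CpG highest, then DKO CpG, WT unstimulated and DKO unstimulated. The rise was 1.65 ± 0.19 in DKO (adjusted p = 0.001) and 2.15 ± 0.19 in WT (adjusted p = 9e-05). None of the tested T cell markers rose with CpG in either genotype, and 1 of 10 fell in each. NK cells also carry Tnfrsf9 once activated, and the 7 tested NK cell markers had median changes of 0.48 in DKO and 0.44 in WT, with none that passed. Their part in the rise was not tested.

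The promoters of the 3 genes that rose in both genotypes and have an entry in the RefSeq promoter table (build GRCm38.p6, 8 of the 10 genes matched) are shown to set their sequences beside their shared rise. Each is the 250 bases before the annotated start, 5′ to 3′ on the strand of the gene, with matches to the NF-kB consensus in capitals. Tnf is on the minus strand at chr17:35202008-35202257, Tnfsf15 on the minus strand at chr4:63745060-63745309 and Tnfrsf9, from the second of 2 listed starts, on the plus strand at chr4:150927749-150927998.
Tnf: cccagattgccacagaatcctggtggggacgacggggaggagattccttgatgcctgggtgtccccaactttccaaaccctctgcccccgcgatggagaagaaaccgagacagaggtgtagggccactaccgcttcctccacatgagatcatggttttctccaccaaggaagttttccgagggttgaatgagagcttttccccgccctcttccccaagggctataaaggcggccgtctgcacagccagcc
Tnfsf15: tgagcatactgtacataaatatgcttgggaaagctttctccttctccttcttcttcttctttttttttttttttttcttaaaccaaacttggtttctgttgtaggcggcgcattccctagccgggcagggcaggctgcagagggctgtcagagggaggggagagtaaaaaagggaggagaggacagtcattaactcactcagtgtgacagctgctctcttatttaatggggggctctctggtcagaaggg
Tnfrsf9: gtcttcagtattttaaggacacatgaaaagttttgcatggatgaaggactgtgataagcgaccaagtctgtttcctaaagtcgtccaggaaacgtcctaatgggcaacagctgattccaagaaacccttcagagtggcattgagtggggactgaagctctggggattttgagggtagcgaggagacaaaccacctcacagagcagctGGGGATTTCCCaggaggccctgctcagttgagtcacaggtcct
The NF-kB consensus was searched on both strands. The Tnfrsf9 window holds 2 overlapping matches, from 43 to 34 and from 42 to 33 bases before the start, and an AP-1 motif (TGACTCA or TGAGTCA) from 15 to 9 bases before it. The windows of Tnf, of Tnfsf15 and of the other Tnfrsf9 start hold neither, and among the other matched genes 1 window of Tnfsf13b holds the AP-1 motif. Of 32851 windows of the same length in the table, 7.25% hold the NF-kB consensus and 4.46% the AP-1 motif. The interferon response motif (GAAA, any 2 bases and GAAA), present in 2.98% of the windows, was found in 1 of the 2 windows of Tnfsf13b and in that of Tnfrsf1b, but not in that of Tnfsf10. Such matches describe letters only and show no binding.

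Tnfsf10 (TRAIL) induces apoptosis through death receptors and is known as an interferon-inducible gene. It measured 6.96, 5.96 and 6.29 in DKO DCs after CpG, against 6.01 and 5.25 without stimulation. In WT DCs it measured 7.06, 6.70 and 8.14 after CpG, against 6.11 and 5.88 without stimulation. CpG and unstimulated arrays overlapped in DKO and were apart in WT, where WT CpG 3 stood more than a log2 unit above the other CpG arrays. The change was 0.78 ± 0.41 in DKO (adjusted p = 0.271) and 1.31 ± 0.41 in WT (adjusted p = 0.0432). The WT call ended without WT CpG 3, where the change was 0.89 (adjusted p = 0.0982), and also without WT unstimulated 1 (0.14), WT unstimulated 2 (0.211) or WT CpG 1 (0.0693). It also ended with the title series as a block (1.24, adjusted p = 0.0506), with no filter on low values (0.0568) and with a trended, robust variance prior (0.0823).

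Tnfsf8 (CD30 ligand) was the 1 gene of the 10 that fell, and it lay near the array medians. It measured 4.91, 4.79 and 5.51 in DKO DCs after CpG, against 5.71 and 6.14 without stimulation. In WT DCs it measured 5.41, 5.25 and 5.24 after CpG, against 5.53 and 5.53 without stimulation. CpG arrays were below unstimulated arrays in each genotype, by 0.86 ± 0.20 in DKO (log2 change -0.86, adjusted p = 0.0254) and by 0.23 ± 0.20 in WT (log2 change -0.23, adjusted p = 0.5). Leaving out DKO unstimulated 2 (adjusted p = 0.187), DKO CpG 1 (0.0789) or DKO CpG 2 (0.0699) ended the DKO call, as did fitting the DKO arrays alone (0.112) or the arrays without Y-linked signal (-0.63, 0.111). B cell markers, whose cells can make Tnfsf8, averaged 6.22 to 6.80 in DKO CpG arrays against 7.03 to 7.30 in DKO unstimulated arrays, and 6.49 to 6.55 in WT CpG arrays against 7.21 to 7.27 in WT unstimulated arrays. Their part in the fall was not tested, and in bulk RNA fewer cells of a type cannot be told apart from less RNA per cell.

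Tnfsf13b (BAFF), the survival factor of B cells, lay near the array medians and spanned only 0.60 log2 units over the 10 arrays. It ranged from 5.59 to 5.80 in DKO CpG arrays and was 6.07 and 5.73 in DKO unstimulated arrays. WT DCs gave 5.94, 5.60 and 5.47 after CpG, against 5.999 and 6.05 without stimulation. The WT arrays were apart with CpG lower, and the DKO arrays overlapped. The change was -0.17 ± 0.16 in DKO (adjusted p = 0.589) and -0.35 ± 0.16 in WT (adjusted p = 0.157), so neither passed.

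Tnfrsf1b (TNFR2), the receptor that binds membrane-bound TNF, had the smallest change of the 7 genes that rose in WT. It measured 9.62, 9.85 and 9.57 in DKO DCs after CpG, against 9.54 and 9.51 without stimulation. In WT DCs it measured 9.94, 9.91 and 9.87 after CpG, against 9.44 and 9.52 without stimulation. CpG arrays were above unstimulated arrays in both genotypes, and the 3 WT CpG arrays were the highest of all 10. The change was 0.15 ± 0.12 in DKO (adjusted p = 0.474) and 0.43 ± 0.12 in WT (adjusted p = 0.0249), and the WT call ended when any 1 of the 5 WT arrays was left out (adjusted p = 0.153 and 0.0932 without WT unstimulated 1 and 2, and 0.0713, 0.0602 and 0.0503 without WT CpG 1, 2 and 3) or when the neutrophil marker level was a covariate (0.0598).

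Tnfrsf4 (OX40), the receptor of Tnfsf4, did not pass in either genotype. It measured 8.05, 7.64 and 7.95 in DKO DCs after CpG, against 7.97 and 7.87 without stimulation. In WT DCs it measured 8.12, 8.48 and 7.74 after CpG, against 7.71 and 7.76 without stimulation. The groups overlapped in both genotypes. The change was -0.04 ± 0.20 in DKO (adjusted p = 0.933) and 0.38 ± 0.20 in WT (adjusted p = 0.217), with 95% intervals of -0.48 to 0.40 and -0.06 to 0.82. The WT change was 0.20 without WT CpG 2 (adjusted p = 0.524) and 0.57 without WT CpG 3 (adjusted p = 0.0509), and it passed on the arrays with title numbers under 20 (0.57, adjusted p = 0.0437).

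**Figure D2:**
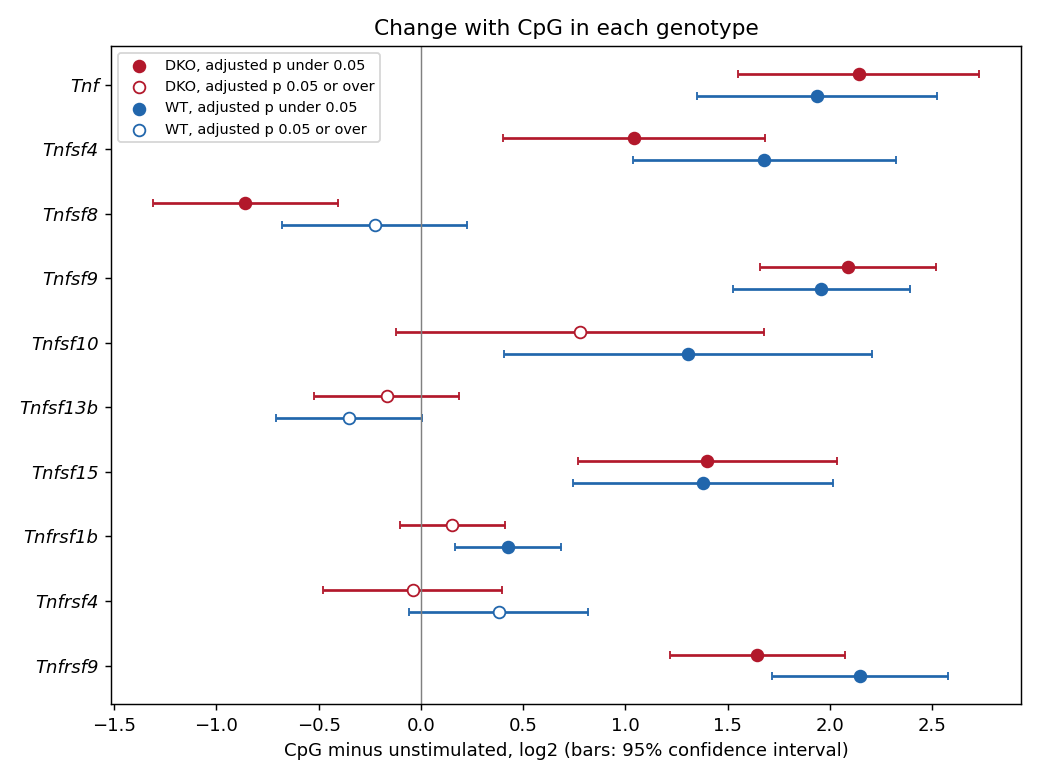
Log2 change with CpG (horizontal axis) of the 10 genes in DKO (upper point of each pair) and WT (lower point), with 95% confidence intervals from limma. Filled points passed at an adjusted p under 0.05: 6 genes in DKO, of which Tnfsf8 fell, and 7 genes in WT.

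Whether the CpG change itself differed between the genotypes was tested as an interaction, which compares the DKO change with the WT change. No gene of the 10 passed in limma (0.00748% of all tested genes did), and none had an unadjusted p under 0.05 (5.65% of all tested genes had). The differences ran from -0.64 ± 0.41 for Tnfsf4 to 0.20 ± 0.38 for Tnf. The intervals stayed wide, at -1.54 to 0.27 for Tnfsf4, -1.11 to 0.11 for Tnfrsf9 and -1.27 to 0.01 for Tnfsf8. The calls of Tnfsf10 and Tnfrsf1b in WT alone, and of Tnfsf8 in DKO alone, are therefore not shown to differ between genotypes.

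After CpG, 9 of the 10 genes were lower in DKO than in WT DCs on average, against 47.2% of all tested genes, but no gene of the 10 passed in limma (0.12% of all tested genes did, 0.0524% upwards and 0.0673% downwards). At an unadjusted p under 0.05 there were 3, namely Tnfrsf9, Tnfsf4 and Tnfsf10, while 14.3% of all tested genes had such a p. Tnfrsf9 came closest, with 7.85 to 8.45 in DKO and 8.84 to 9.33 in WT and a difference of -0.86 ± 0.17 (adjusted p = 0.0694, 95% interval -1.25 to -0.48). Tnfsf4 differed by -0.70 ± 0.26 (adjusted p = 0.258) and Tnfsf10 by -0.90 ± 0.36 (adjusted p = 0.295). The DKO arrays lay wholly below the WT arrays for Tnfsf4, Tnfrsf1b and Tnfrsf9, as they did for 7.58% of all tested genes.

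The Tnfrsf9 difference kept its sign under all 24 alternatives and passed under 6. Choices such as the filter, the variance prior or leaving out an unstimulated array left it at -0.86 and could not change its sign. The difference was -0.80 among arrays with title numbers under 20 (2 against 2) and -0.98 among the others (1 against 1). Under 20, the DKO CpG arrays had Y-linked signal and the WT CpG arrays did not. Genotype and Y-linked signal cannot be told apart there. Blocking on the title series gave an adjusted p of 0.0235. It also passed with array weights (-0.82, adjusted p = 0.0468), with the macrophage marker level as a covariate (-0.79, adjusted p = 0.047) and without DKO CpG 1 (-1.01, adjusted p = 0.0291). The remaining passes were with Y-linked signal as a covariate (-1.05, adjusted p = 0.00977) and on the arrays without Y-linked signal (-1.15). DKO CpG 3 was the only DKO CpG array without Y-linked signal. The last fit rests on it alone for DKO after CpG, and the covariate fit leans on it. Adding the neutrophil marker level to the model gave a Tnfrsf9 difference of -0.46 (adjusted p = 0.444). In that fit the difference was -0.05 for Tnfsf4 (adjusted p = 0.972) and -1.35 for Tnfsf10 (adjusted p = 0.375). It was above 0 for Tnf (0.17), Tnfsf15 (0.30) and Tnfrsf4 (0.08), against -0.23, -0.39 and -0.23 without the covariate, and none of these passed. After CpG the neutrophil marker level barely overlapped between the genotypes, at 5.43 to 7.06 in DKO and 7.02 to 8.84 in WT. Genotype and neutrophil marker level therefore cannot be told apart in that fit.

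The 6 CpG arrays were ranked for the 10 genes only, with no count over all tested genes to set beside them. DKO CpG 3 was the lowest of the 6 CpG arrays for 6 of the 10 genes (Tnf, Tnfsf4, Tnfsf9, Tnfsf15, Tnfrsf1b and Tnfrsf9). This array also had the lowest neutrophil marker level of all, 5.43, and the lowest splenic macrophage marker level, 8.51. WT CpG 2 was the highest of the 6 for Tnfsf4, Tnfsf15, Tnfrsf4 and Tnfrsf9 and had the highest neutrophil marker level, 8.84. Tnf was highest in DKO CpG 1, Tnfsf8 in DKO CpG 3, Tnfsf10 in WT CpG 3 and the other 3 genes in WT CpG 1. The lowest array was DKO CpG 2 for Tnfsf8, Tnfsf10 and Tnfrsf4 and WT CpG 3 for Tnfsf13b. The part of other cells in these ranks was not tested.

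Without stimulation no gene of the 10 passed between DKO and WT in limma (0.00748% of all tested genes did), and Tnfsf9 alone had an unadjusted p under 0.05 (4.63% of all tested genes had). The differences ran from -0.49 ± 0.21 for Tnfsf9 to 0.40 ± 0.22 for Tnfsf8. DKO arrays lay wholly below WT arrays for Tnfsf9, Tnfsf15 and Tnfrsf9 and wholly above them for Tnfsf8 and Tnfrsf4, as they did for 15.9% and 18.3% of all tested genes. With 2 arrays a group, the 95% interval for Tnf reached from -1.08 to 0.21 and that for Tnfsf10 from -1.35 to 0.62. The CpG change in DKO and this comparison share the DKO unstimulated arrays.

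**Figure D3:**
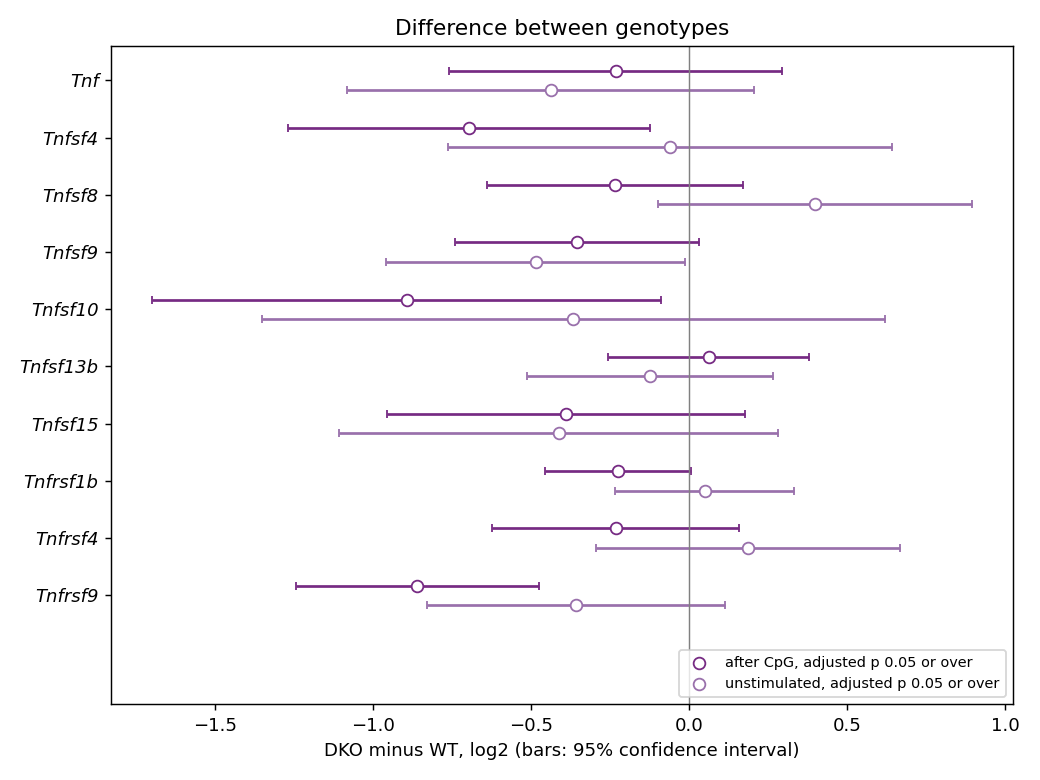
DKO minus WT on the log2 scale (horizontal axis) for the 10 genes after CpG (upper point of each pair) and without stimulation (lower point), with 95% confidence intervals from limma. All points are open because no gene passed. The intervals that lie below 0 are those of Tnfsf4, Tnfsf10 and Tnfrsf9 after CpG and of Tnfsf9 without stimulation.

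Some of the genes followed nearly the same course over the 10 arrays. Likeness was taken as the root mean square difference between values centred per gene on the mean of all arrays, which is a description of these 10 arrays in 4 groups. The closest pair among the 10 genes was Tnf and Tnfsf9, at 0.21 log2 units, where each gene alone had an SD of 1.11 and 1.09. Among all named tested genes Tnf was closest to Dgkh (0.19) and then Tnfsf9, and Tnfsf9 was closest to Tnf and then Mmp14 (0.22). Tnfrsf9 was closest to Ly75 (0.20), which encodes the endocytic receptor DEC-205, and then to Fas (0.21), another receptor of the superfamily. Tnfsf15 was closest to Gfra1 (0.17) and Ccnyl1 (0.18), and Tnfsf4 to Cd200 (0.24) and Poglut1 (0.27). Tnfsf10 was closest to Nt5c3 (0.20) and Il15 (0.23). Genes that vary little lie near many others, and the values for Tnfsf8 (Cdc7, 0.09, and Msl1, 0.11), Tnfsf13b (Spata6, 0.08, and Ckap4, 0.09), Tnfrsf1b (Vrk2, 0.07, and Vwa1, 0.08) and Tnfrsf4 (P3h1, 0.10, and Ccng2, 0.11) stand against SDs of 0.19 to 0.39.

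Other tested receptors that these ligands bind did not pass in either genotype. Tnfrsf1a (TNFR1), the death-domain receptor of TNF, averaged 8.54 ± 0.40 after CpG and 8.43 ± 0.14 without stimulation in DKO, and 8.68 ± 0.04 and 8.57 ± 0.02 in WT (SD, n = 3 and 2). Its change with CpG was 0.11 ± 0.19 in each genotype (adjusted p = 0.784 in DKO and 0.75 in WT). Tnfrsf8 (CD30), which binds Tnfsf8, changed by 0.14 ± 0.18 in DKO (adjusted p = 0.694) and 0.45 ± 0.18 in WT (adjusted p = 0.0993). Tnfrsf25 (death receptor 3), which binds Tnfsf15, changed by 0.08 ± 0.14 and 0.18 ± 0.14, and Tnfrsf13c (BAFF receptor) by 0.09 ± 0.13 and 0.31 ± 0.13, in DKO and WT in each case, and none of these passed. Tnfrsf22 and Tnfrsf23, mouse decoy receptors of Tnfsf10 added here after their values were seen, changed by -0.18 ± 0.16 and -0.24 ± 0.24 in DKO and by -0.26 ± 0.16 and -0.38 ± 0.24 in WT, with adjusted p-values of 0.55 and 0.61 in DKO and 0.3 and 0.327 in WT. Tnfrsf10b, which binds Tnfsf10 in the mouse, and the further BAFF-binding receptors Tnfrsf13b and Tnfrsf17 were below the filter. Their group means were 5.13 to 5.63 for Tnfrsf10b, 4.38 to 4.72 for Tnfrsf13b and 4.87 to 5.06 for Tnfrsf17.

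In the wider superfamily most tested genes did not pass. Counts in this and the following lists stand against 4.54% of all tested genes that rose and 5.76% that fell in DKO, and 8.24% that rose and 13.3% that fell in WT. Of 11 other ligands 6 were tested, of which Cd70 rose and Ltb fell in DKO, while Cd70 and Lta rose and Tnfsf18 fell in WT. Cd70, the ligand of CD27 on T cells, rose by 1.73 ± 0.28 in DKO (adjusted p = 0.0051) and 2.49 ± 0.28 in WT (adjusted p = 0.000272), and it measured 6.13 to 7.08 in DKO CpG arrays against 4.67 and 5.10 in DKO unstimulated arrays. Cd70 was below the array median on every unstimulated array, so it passed the filter through the CpG arrays only. Tnfsf18, the ligand of GITR, fell by 1.36 on the log2 scale in WT (adjusted p = 0.00326) and changed by -0.48 ± 0.24 in DKO (adjusted p = 0.258). The call of Ltb in DKO (-0.87 ± 0.21, adjusted p = 0.0282) ended without DKO unstimulated 1 (0.0805), DKO unstimulated 2 (0.157), DKO CpG 1 (0.084) or DKO CpG 2 (0.0698), and that of Lta in WT (0.57 ± 0.13, adjusted p = 0.0105) without WT unstimulated 1 (0.0542) or 2 (0.0864). The count in DKO was 1 in each of these cases, and that in WT was 5 without DKO CpG 3. Median changes of the 6 were -0.09 in DKO and 0.34 in WT.

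Of 25 other receptors 18 were tested, and 3 rose in DKO, while 5 rose and 1 fell in WT. Cd40, through which T cells license DCs, rose by 2.24 ± 0.22 in DKO (adjusted p = 0.00037) and 2.59 ± 0.22 in WT (adjusted p = 7.5e-05). Fas, a death receptor, rose by 1.56 ± 0.28 (adjusted p = 0.00759) and 2.13 ± 0.28 (adjusted p = 0.000561) in the same order. Tnfrsf14 (HVEM) rose by 0.82 ± 0.18 (adjusted p = 0.0163) and 1.10 ± 0.18 (adjusted p = 0.00171). Without DKO unstimulated 2, neither Fas (adjusted p = 0.0693) nor Tnfrsf14 (0.129) passed in DKO. Tnfrsf11a (RANK) rose in WT by 0.75 ± 0.18 (adjusted p = 0.0129), though not without WT unstimulated 1 (0.11) or 2 (0.0564). In DKO, Tnfrsf11a averaged 7.29 after CpG and 6.99 without stimulation, and the change did not pass. The number called was 1 in DKO without DKO unstimulated 2, and 3 in WT without WT unstimulated 1 or 2. The median change was 0.10 in DKO and 0.19 in WT. With the 10 genes, 34 superfamily members were tested, of which 9 rose and 2 fell in DKO, and 14 rose and 2 fell in WT, where 10.3% of all tested genes passed in DKO and 21.6% in WT. No gene of the other 24 passed between DKO and WT in either condition or in the interaction in limma, with 6 at an unadjusted p under 0.05 after CpG, 3 without stimulation and 3 in the interaction (14.3%, 4.63% and 5.65% of all tested genes).

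**Figure D4:**
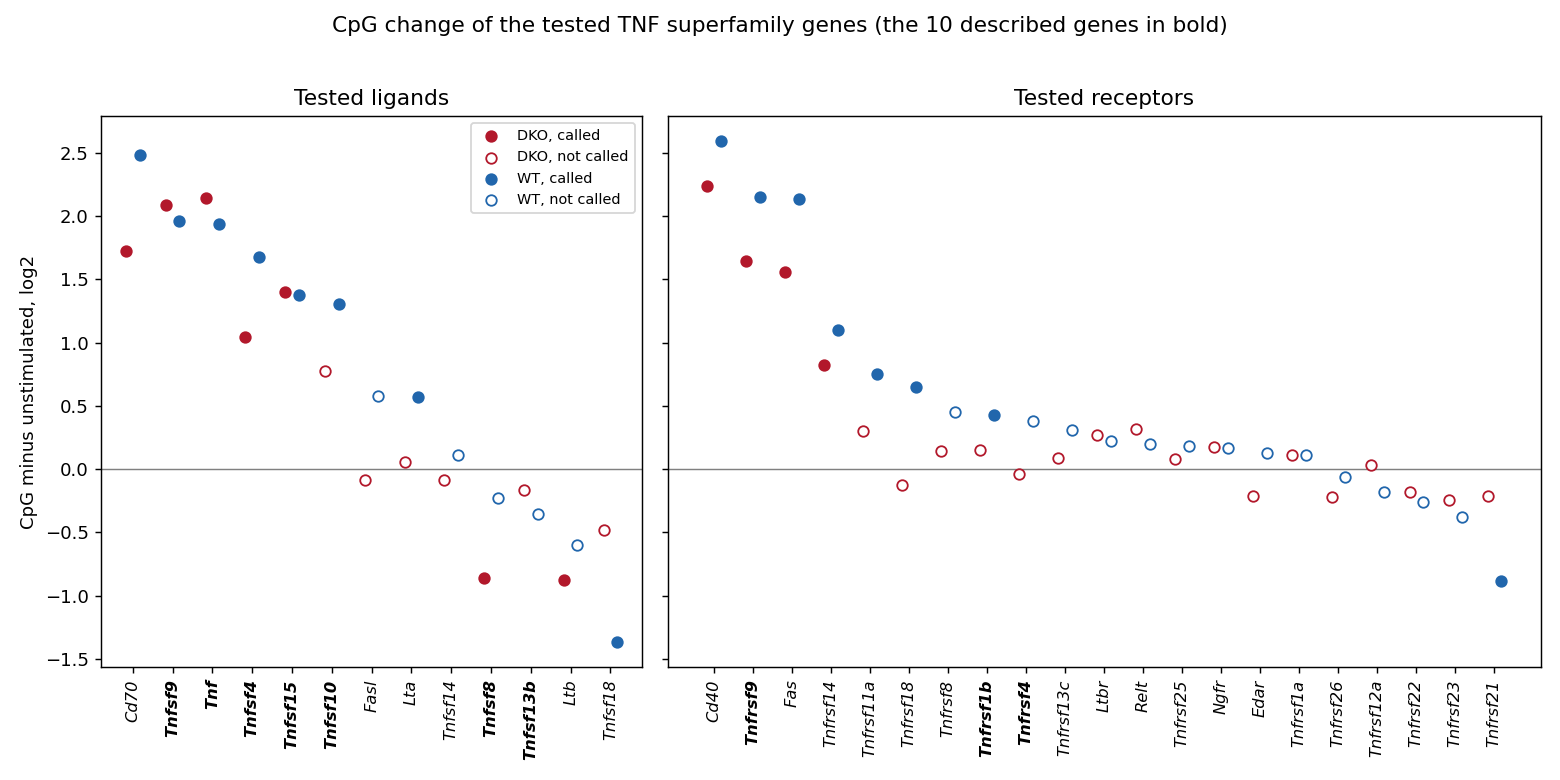
Log2 change with CpG (vertical axis) of the 34 tested superfamily genes, ligands on the left and receptors on the right, ordered by the change in WT. Red points are DKO and blue points WT, and filled points passed at an adjusted p under 0.05. Cd70, Cd40, Fas and Tnfrsf14 rose in both genotypes beside Tnf, Tnfsf4, Tnfsf9, Tnfsf15 and Tnfrsf9.

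Among genes that carry the signal inside the cell, more rose than fell in both genotypes. Of 33 signalling genes near the receptors 29 were tested, and 11 rose and none fell in DKO, while 18 rose and 2 fell in WT, with medians of 0.31 and 0.54. Cflar, an inhibitor of caspase-8 at death receptors, rose by 1.69 ± 0.11 in DKO (adjusted p = 0.000126) and 1.53 ± 0.11 in WT (adjusted p = 4.5e-05). Birc3, a ubiquitin ligase bound to TRAF2, rose by 0.80 ± 0.10 (adjusted p = 0.00159) and 0.94 ± 0.10 (adjusted p = 0.000244). Birc2, its close relative, rose by 0.78 ± 0.15 in DKO (adjusted p = 0.0109, and 0.0727 without DKO unstimulated 1) and 1.485 ± 0.15 in WT (adjusted p = 0.000171). Traf1, an adaptor of 4-1BB and TNFR2, rose by 0.69 ± 0.13 in DKO (adjusted p = 0.00887, and 0.0665 without DKO unstimulated 1) and 0.89 ± 0.13 in WT (adjusted p = 0.000911). Nfkb2, a subunit of non-canonical NF-kB, rose by 0.65 ± 0.11 in DKO (adjusted p = 0.00702, and 0.067 without DKO unstimulated 2) and 0.84 ± 0.11 in WT (adjusted p = 0.000653). In DKO 6 passed without DKO unstimulated 1 and 5 without DKO unstimulated 2. In WT 12 passed without WT unstimulated 1, and 9 when the other unstimulated array was left out.

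Of 16 genes that shed TNF superfamily ligands or control Tnf mRNA, 15 were tested, and 2 rose and 1 fell in DKO, while 4 rose and 3 fell in WT, with medians of 0.12 and 0.15. Rhbdf2 (iRhom2), which brings the sheddase ADAM17 to the cell surface, rose by 1.55 ± 0.29 in DKO (adjusted p = 0.00907, and 0.0913 without DKO unstimulated 2) and 1.43 ± 0.29 in WT (adjusted p = 0.00593, and 0.0572 without WT unstimulated 2). Furin, a protease that matures ADAM17, rose by 0.69 ± 0.16 in DKO (adjusted p = 0.0247) and 0.87 ± 0.16 in WT (adjusted p = 0.00408). Furin did not pass in DKO when DKO unstimulated 2 (0.183), DKO CpG 1 (0.0777) or DKO CpG 2 (0.0704) was left out. Zc3h12a, an RNase of inflammatory mRNAs, rose by 0.56 ± 0.10 in WT (adjusted p = 0.00358), and Zfp36l2, an mRNA decay factor, fell by 1.26 on the log2 scale in WT (adjusted p = 0.00175). In DKO the means moved the same way without a call. They were 8.76 after CpG and 8.43 without stimulation for Zc3h12a, and 7.06 and 7.65 for Zfp36l2. Tia1, a translational silencer of Tnf mRNA, fell by 0.73 in DKO (adjusted p = 0.0272), a call that ended without any 1 of DKO unstimulated 1 (0.0659), DKO unstimulated 2 (0.168), DKO CpG 1 (0.0777) and DKO CpG 2 (0.0758). It fell by 0.86 in WT (adjusted p = 0.00647, and 0.0768 without WT unstimulated 1). The number called in DKO was 0 without DKO unstimulated 2 and 1 without DKO CpG 1 or 2, and in WT it was 4 without WT unstimulated 2. In neither of these 2 lists did a gene pass between DKO and WT in limma in either condition or in the interaction, with 9 of their 44 tested genes at an unadjusted p under 0.05 after CpG, 1 without stimulation and 5 in the interaction (14.3%, 4.63% and 5.65% of all tested genes).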

How the data were processed

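RNA of the 10 isolates was read on 1 Mouse Gene 2.0 ST array each (Affymetrix). Per the submitters' processing notes, the authors normalised the scans with RMA and used Expression Console, and they deposited log2 intensities per probe set. No source used here gives versions or a genome build. The table held 41345 probe sets. Of these, 23521 had 1 gene symbol (23328 matched a reference gene of GRCm38.p6 by identifier), 1814 had several and 16010 had none. The probe set with the highest mean stood for a gene. Genes above the array median on at least 2 arrays were tested (13371). Precision is limited by the number of arrays.

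All arrays entered 1 linear model with a mean for each of the 4 groups (limma 3.58.1, lmFit and eBayes, R 4.3.3), which gave 5 contrasts with two-sided p-values adjusted by Benjamini-Hochberg. The 10 genes and all lists were chosen with earlier results of these data known. Named list genes were the 4 with the smallest p among those called in each CpG contrast, less those already given, and the partner receptors of the ligands. Tested on simulated data, the fit recovered 93 of 100 genes changed by 1 log2 unit for CpG in DKO and 96 for CpG in WT, 84 for DKO minus WT without stimulation, 97 after CpG and 55 for the interaction. Of 100 genes changed by 2 log2 units it recovered 99, 99, 100, 97 and 98 in the same order. False calls numbered 12, 19, 11, 14 and 7, listed alike for both sizes. These are rates for simulated data and not for the measured genes. After CpG, for instance, Tnfsf10 differed between DKO and WT by -0.90 ± 0.36 and did not pass.

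Marker lists of 10 cell types were used to describe the isolates. Of their 83 tested genes, 15 fell and none rose with CpG in DKO (5.76% and 4.54% of all tested genes). In WT 20 fell and 3 rose (13.3% and 8.24%). None passed between DKO and WT in limma, with 19 at an unadjusted p under 0.05 after CpG and 10 without stimulation (14.3% and 4.63% of all tested genes). Neutrophil markers made up 8 of the 19 and 6 of the 10, with a median difference of -1.76 in each condition. Groups follow the source names. Alternatives concerned the filter, probe sets, normalization, variance prior, array weights, title series, Y-linked signal, other cells and single arrays. Figures were drawn with matplotlib 3.10.9.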

Additional observations from a re-analysis of the deposited data

How the results depend on the processing

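Across 24 alternatives (23 for the interaction) no gene of the 10 with a call changed direction. Some of them, such as the filter, alter only p-values and could not change a direction. The count called with CpG in DKO was 6 and fell to 3 on the arrays without Y-linked signal, where each DKO group had 1 array that was assumed to vary like the others. It ranged from 3 to 6 when single arrays were left out. The count with CpG in WT was 7 and ranged from 4 to 7 when single arrays were left out. It was 8 with the macrophage marker level as a covariate, where Tnfsf8 passed (-0.35, adjusted p = 0.0441), and 8 on title numbers under 20, where Tnfrsf4 passed (0.57, adjusted p = 0.0437). Between DKO and WT after CpG the count of 0 became 1 (Tnfrsf9) with array weights, with the title series as a block, with Y-linked signal as a covariate, on the arrays without Y-linked signal and with the macrophage marker level as a covariate, and ranged from 0 to 1 when single arrays were left out. Without stimulation the count of 0 became 1 with Y-linked signal as a covariate (Tnfsf8, 0.69, adjusted p = 0.0357). The macrophage covariate and the fit without the 2 DKO arrays of the second title series were chosen after seeing the data. Over all tested genes the number called ranged from 402 to 1909 for CpG in DKO (1377 in the fit used), from 1277 to 3767 for CpG in WT (2885), from 2 to 800 for DKO minus WT after CpG (16), from 1 to 407 without stimulation (1) and from 0 to 2 for the interaction (1). The cause of these shifts was not tested. No detection calls were used, so values near the array median, as for Tnfsf8 and Tnfsf13b, may be close to background. No paired analysis was possible because the labels give no replicate numbers that groups share.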

Other observations

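Several of these genes lie beside other superfamily genes in the genome (order of protein-coding genes in GRCm38.p6), and the neighbours were named after their values were seen. On chromosome 4, Tnfsf15 rose in both genotypes, while the adjacent Tnfsf8 fell by 0.86 in DKO and changed by -0.23 in WT. On chromosome 17, Tnf rose while its neighbours Ltb and Lta changed by -0.87 ± 0.21 and 0.05 ± 0.13 in DKO and by -0.60 ± 0.21 and 0.57 ± 0.13 in WT. Also on chromosome 17, Tnfsf9 and the adjacent Cd70 both rose in both genotypes, whereas Tnfsf14, the next gene, changed by -0.09 ± 0.24 in DKO and 0.11 ± 0.24 in WT (adjusted p = 0.871 and 0.811). On chromosome 1, Tnfsf4 rose in both genotypes, while its neighbour Tnfsf18 changed by -0.48 ± 0.24 in DKO and fell by 1.36 in WT. The pair Tnfrsf4 and Tnfrsf18 on chromosome 4 changed by -0.04 ± 0.20 and -0.13 ± 0.18 in DKO. In WT, Tnfrsf18 (GITR) rose by 0.65 ± 0.18 (adjusted p = 0.0236), a call that ended without WT unstimulated 1 (0.0606), WT unstimulated 2 (0.188), WT CpG 1 (0.0695) or WT CpG 3 (0.0584). Whether neighbouring genes differ in their change was not tested.

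WT CpG 3 and DKO CpG 3 come from the second title series. Tnfsf10 measured 6.29 in DKO CpG 3 and 8.14 in WT CpG 3, a difference of -1.85, against -0.42 between the DKO and WT means of the first series. Tnfsf4 had its larger difference in the first series, at -0.91, against -0.28 in the second. With 1 array a group in the second series, neither contrast between series was tested.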
